A study of Mus musculus with 56 samples.

Results

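The genes described here are 6 glandular kallikreins of the Klk1 cluster on mouse chromosome 7, namely Klk1, Klk1b21, Klk1b22, Klk1b24, Klk1b26 and Klk1b27. They are 6 of the 53379 genes counted. They were listed by name, as the glandular kallikreins of the testis, because several of them were lower in the testis of old mice. They were thus selected on their testis counts at both ages, and those counts are given below as a description with no test.

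The libraries came from male C57BL/6 mice of 2 ages, 3 and 21 months. Total RNA of 7 regions was sequenced, which were the testis, the efferent ductules, the initial segment, caput, corpus and cauda of the epididymis, and the vas deferens. There were 4 libraries per region and age, and 56 in all. Per the study's methods, each mouse gave both organs of a pair and all of its regions, so that libraries of different regions were not from independent animals. Each library held between 11125279 and 20561967 counts on genes, so that a CPM (counts per 1000000 counts) of 1 stood for about 16.4 reads in the median library. CPM values below were scaled by the trimmed mean of M values (TMM) over all libraries. In whole tissues, fewer cells of a type and less RNA per cell cannot be told apart.

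Kallikreins are secreted serine proteases. Klk1 is the true tissue kallikrein, which cuts kininogens and releases kinins, small peptides that dilate vessels through the bradykinin receptors Bdkrb1 and Bdkrb2. The Klk1b genes are a rodent expansion of Klk1 that lies in tandem beside it and is best known from the submandibular gland, where many members depend on androgens and process growth factors. In the mouse testis, Klk1b21, Klk1b24 and Klk1b27 are known from Leydig cells, the androgen-producing cells between the seminiferous tubules. Klk1b22 is known as a protease that binds epidermal growth factor, and Klk1b26 as an enzyme that converts prorenin.

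All 6 genes lie on the plus strand of chromosome 7 in GRCm38 and code for proteins. In order along the chromosome they are Klk1b26 (chr7:44012168-44016968), Klk1b27 (chr7:44052290-44056712), Klk1b21 (chr7:44102328-44106583), Klk1b22 (chr7:44112673-44116922), Klk1b24 (chr7:44188236-44192455) and Klk1 (chr7:44225360-44229618). They span 217 kb of a locus of 539 kb that holds 59 annotated genes, of which 37 are named as kallikreins or kallikrein pseudogenes. The exons of each gene cover between 855 and 1386 bases. Sequences that lie before the GENCODE start of 4 of the genes are shown because these 4 were lower in the old testis. They were taken from the RefSeq promoter table (build GRCm38.p6, plus strand), and the capitals mark the motif TTTAAA.
Klk1b21 (chr7:44102156-44102311): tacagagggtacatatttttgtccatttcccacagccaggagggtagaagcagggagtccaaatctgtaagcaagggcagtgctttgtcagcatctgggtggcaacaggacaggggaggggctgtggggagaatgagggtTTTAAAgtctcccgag
Klk1b24 (chr7:44188065-44188220): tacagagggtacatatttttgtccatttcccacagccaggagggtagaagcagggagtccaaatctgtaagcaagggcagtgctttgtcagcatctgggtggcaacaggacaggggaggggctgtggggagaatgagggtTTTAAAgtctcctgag
Klk1b27 (chr7:44052133-44052288): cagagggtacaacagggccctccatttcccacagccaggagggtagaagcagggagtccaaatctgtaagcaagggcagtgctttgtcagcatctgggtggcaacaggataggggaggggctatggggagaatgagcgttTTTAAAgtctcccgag
Klk1b22 (chr7:44112493-44112648): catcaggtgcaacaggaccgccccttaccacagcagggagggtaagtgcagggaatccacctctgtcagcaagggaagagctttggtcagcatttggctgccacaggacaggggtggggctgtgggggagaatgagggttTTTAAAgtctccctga

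Over these 156 bases Klk1b21 and Klk1b24 were 99.4% identical and shared a run of 152 bases. Klk1b27 matched Klk1b21 at 92.3% and Klk1b24 at 91.7% of aligned bases, with a longest shared run of 89 bases in both pairs. Klk1b22 was further from them, with identities between 81.3% (Klk1b27) and 84.6% (Klk1b21) of the bases that aligned. The stretch of Klk1b26 around the same motif, which lies before the RefSeq start of that gene but inside the gene by its GENCODE start, was closer to Klk1b21 (87.4%), Klk1b24 (88.1%) and Klk1b27 (85.3%) than that of Klk1b22 was. The motif began 32, 31, 17 and 40 bases before the GENCODE start of Klk1b21, Klk1b24, Klk1b27 and Klk1b22. By the RefSeq start it lay at the same distances for the last 3 genes, but began 4 bases after the start for Klk1b21.

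TTTAAA, which reads the same on both strands, stood in the promoter window (250 bases before to 50 after the RefSeq start) of 5 of the 6 genes, all but Klk1, and in 13.2% of the 32851 promoters of the table. This motif was added after the sequences were seen, and related promoters are not independent occurrences of it. The TATA box TATAAA was in the window of 0 of the 6 genes and in 13.6% of all promoters, and overlaps none of the TTTAAA matches. CCAAT, on either strand, was found in 4 of them (Klk1, Klk1b21, Klk1b24 and Klk1b26) and in 37.4% of all promoters. AAGGTCA, the core of sites bound by the steroidogenic factor Nr5a1, was in the windows of Klk1 and Klk1b21 and in 4.72% of all promoters, and the GATA factor site AGATAA was in none of the 6 and in 11.2%.

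The transcripts were close as well. Among the 15 pairs of genes, the identity of the longest coding transcripts ran from 84.0% (Klk1 and Klk1b27) to 93.3% (Klk1b24 and Klk1b27). No stretch of 150 bases of any of the 6 genes occurred in the transcript of another gene, and the longest shared run was 145 bases, between Klk1 and Klk1b5. The longest run that Klk1b21 shared was 117 bases, with Klk1b24, and that of Klk1b27 was 113 bases, with Klk1b21. Per the study's methods the reads were 150 bases long, so only reads shortened by trimming could lie wholly in such a run. Reads that do could be assigned to either gene or dropped by the counting, so the levels of the related genes are uncertain to that degree.

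By mean level, Klk1, Klk1b21, Klk1b22, Klk1b24 and Klk1b26 were highest in the testis at both ages, whereas Klk1b27 was highest in the cauda and so went against the name testicular. The testis libraries of Klk1b21, Klk1b22 and Klk1b24 at 21 months and of Klk1b26 at 3 months overlapped with those of another region. The germ cell markers Prm1, Prm2, Tnp1 and others (18 genes, all detected) summed to between 16295 and 18214 CPM in the testis libraries and to at most 1144 CPM in the efferent ductules, initial segment, cauda and vas deferens, so that the libraries labelled testis held that tissue. The levels of the 6 genes by region and age are plotted, and because the group was named after its testis level they are given with no test.

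**Figure D1:**
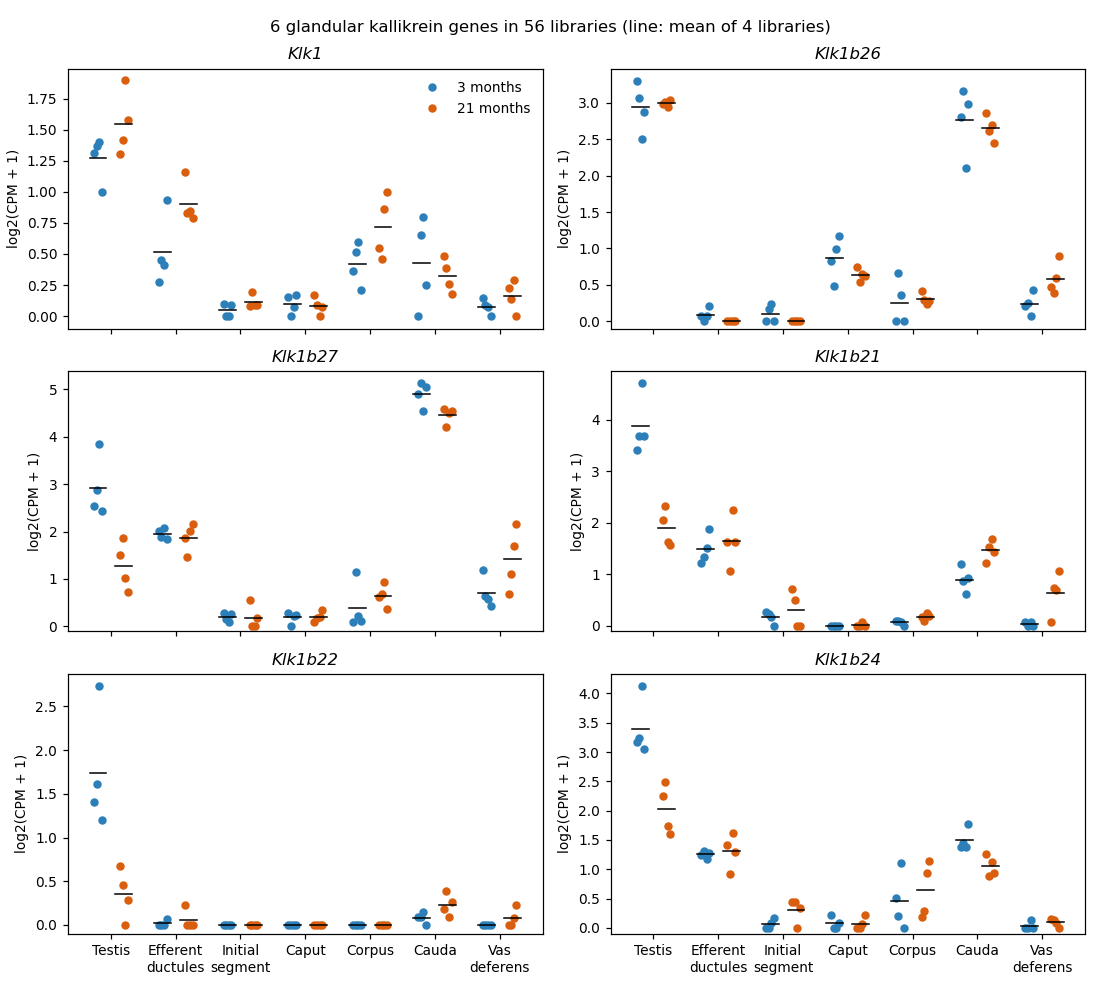
Level of each of the 6 genes, as log2(CPM + 1), in the 56 libraries. Each point is 1 library (3 months in blue, 21 months in orange), and the line is the mean of the 4 libraries. Klk1b27 stands highest in the cauda, and Klk1b21, Klk1b22, Klk1b24 and Klk1b27 stand lower in the testis at 21 months.

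At 3 months the genes were unequal in the testis. Per kb of exon, Klk1b21 was the most abundant at 16.8 CPM per kb, followed by Klk1b24 at 11.5, Klk1b27 at 8.12, Klk1b26 at 4.92, Klk1b22 at 3.13 and Klk1 at 1.32 CPM per kb. Klk1b21 took place 3560 and Klk1 place 16020 among the 33836 genes detected there. At 21 months the order was another one, with Klk1b26 first at 5.01 CPM per kb, then Klk1b24 at 3.64, Klk1b21 at 3.23, Klk1 at 1.82, Klk1b27 at 1.74 and Klk1b22 at 0.350 CPM per kb.

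Klk1b21 in 3-month mice was 7.90-fold higher in the testis (14.6 ± 7.06 CPM, SD, n = 4) than in the efferent ductules (1.85 ± 0.598 CPM), with no overlap between libraries. The cauda came next at 0.886 ± 0.314 CPM, and the initial segment, corpus, vas deferens and caput had at most 0.129 CPM on average. At 21 months the testis libraries (1.98 to 4.03 CPM) overlapped with those of the efferent ductules (1.11 to 3.74 CPM), so the first place in the order was not separated from the second beyond the spread.

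Klk1b24 was also highest in the testis at 3 months, where it averaged 10.1 ± 4.33 CPM. The cauda (1.83 ± 0.398 CPM) and the efferent ductules (1.38 ± 0.0922 CPM) followed. These 3 regions did not overlap one another at 3 months, while at 21 months the testis (2.04 to 4.62 CPM) overlapped with the efferent ductules (0.884 to 2.09 CPM). At 3 months the next region, the corpus, reached 0.428 ± 0.508 CPM. Klk1b22 had a mean of 2.67 ± 2.02 CPM in the testis at 3 months (193 reads), against 4 reads in the cauda. At 21 months its testis libraries (0 to 0.601 CPM) overlapped with those of the cauda (0.0652 to 0.306 CPM), and no read was counted in the initial segment, caput or corpus at either age.

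Klk1b27 was a cauda transcript first. It reached 29.3 ± 5.12 CPM in the cauda at 3 months, 4.06-fold above the testis at 7.22 ± 4.15 CPM and apart from it in every library. Per kb this was 33.0 CPM, which put Klk1b27 at place 991 of the 31185 genes detected in that region. The efferent ductules followed with 2.88 ± 0.298 CPM. At 21 months the cauda still led at 21.1 ± 2.51 CPM, and the efferent ductules (2.72 CPM), vas deferens (1.88 CPM) and testis (1.55 CPM) could not be separated beyond their spread.

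Klk1b26 was found mainly in the testis and cauda, at overlapping levels. Its testis libraries (6.81 ± 1.76 CPM at 3 months) overlapped with its cauda libraries (6.02 ± 1.99 CPM), and the caput followed with 0.855 ± 0.361 CPM. At 21 months the testis (6.95 ± 0.242 CPM) lay just above the cauda (5.34 ± 0.767 CPM) in every library, and no read was found in the efferent ductules or initial segment. Klk1 itself was low throughout. It averaged 1.43 ± 0.290 CPM in the testis at 3 months and 1.96 ± 0.550 CPM at 21 months, and below 0.9 CPM in every other region.

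The mixture of genes therefore differed between regions. In the testis at 3 months Klk1b21 made up 33.5% and Klk1b27 16.1% of the summed CPM of the 6 genes (mean share over 4 libraries), while in the cauda Klk1b21 made up 2.30% and Klk1b27 76.3%. The ratio of Klk1b27 to Klk1b21 reads lay between 0.333 and 0.653 in all 8 testis libraries, between 0.803 and 2.28 in the 8 libraries of the efferent ductules, and between 9.19 and 42.1 in the 8 cauda libraries. Ranges of the 3 regions did not overlap. Within the cauda the ratio was 22.3 to 42.1 at 3 months and 9.19 to 17.2 at 21 months.

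Whether the genes differed among the regions outside the testis was tested, since those libraries did not serve to choose them. With edgeR's quasi-likelihood test over the 6 ducts at 3 months, 5 genes had enough reads and all 5 passed at a Benjamini-Hochberg adjusted p under 0.05, as did 78.6% of all genes tested. The adjusted p in that test ran from 3.37e-16 (Klk1b27) to 0.00231 (Klk1). At 21 months 6 of 6 passed, beside 79.4% of all genes, with Klk1b22 the weakest at an edgeR adjusted p of 0.0226. With DESeq2, with edgeR's filterByExpr, or without the libraries of replicate 2, 3 or 4, it was 5 at 21 months. A difference among ducts was common to most genes of the tract.

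In the testis, Klk1b21, Klk1b22, Klk1b24 and Klk1b27 were lower in all 4 old libraries than in any young one, and Klk1 and Klk1b26 overlapped between ages. These values chose the genes and carry no test. Of all 30031 genes of this comparison, 3.17% had every 21-month library below every 3-month library and 6.23% had a fitted level at least 1.5-fold lower, and nothing is read from that contrast here.

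Klk1b21 had 9.68, 11.8, 25.1 and 11.9 CPM in the young testis libraries and 3.17, 4.03, 2.07 and 1.98 CPM in the old ones. The young libraries together held 1049 of its reads and the old ones 207. Its fitted level was 5.20-fold lower at 21 months (log2 change -2.38, SE 0.25). Klk1b24 had 8.02, 8.48, 16.5 and 7.29 CPM in the young and 3.77, 4.62, 2.34 and 2.04 CPM in the old libraries, and was 3.16-fold lower (log2 change -1.66, SE 0.24). In both genes the third young library was the highest and the second old library was the highest of the old.

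Klk1b27 showed the same pattern at a lower level. It had 4.81, 6.36, 13.3 and 4.41 CPM in the young and 1.86, 2.63, 1.04 and 0.661 CPM in the old libraries, a 4.66-fold lower fitted level (log2 change -2.22, SE 0.32). Klk1b22, the gene with the fewest reads of these 4, had 1.66, 2.07, 5.67 and 1.29 CPM in the young and 0.601, 0.376, 0 and 0.220 CPM in the old libraries, 8.81-fold lower when fitted (log2 change -3.14, SE 0.50). The third young library was again the highest for both, and leaving it out brought the fitted decrease to 3.95-fold for Klk1b21, 5.5-fold for Klk1b22, 2.48-fold for Klk1b24 and 3.35-fold for Klk1b27.

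Klk1b26 and Klk1 did not share this pattern. Klk1b26 had 8.88, 7.34, 4.69 and 6.35 CPM in the young and 6.88, 7.04, 6.65 and 7.22 CPM in the old testis libraries, with a log2 change of 0.03 (SE 0.15). The third young library, the highest for the 4 genes above, was the lowest for Klk1b26. Klk1 had 26, 29, 30 and 17 reads in the young and 27, 31, 50 and 36 reads in the old libraries, with a log2 change of 0.45 (SE 0.24). The summed level of the 6 genes was 42.8 ± 16.2 CPM in the young testis and 16.8 ± 2.87 CPM in the old, and Klk1b26 made up on average 18.0% of a young and 42.3% of an old library's sum.

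**Figure D2:**
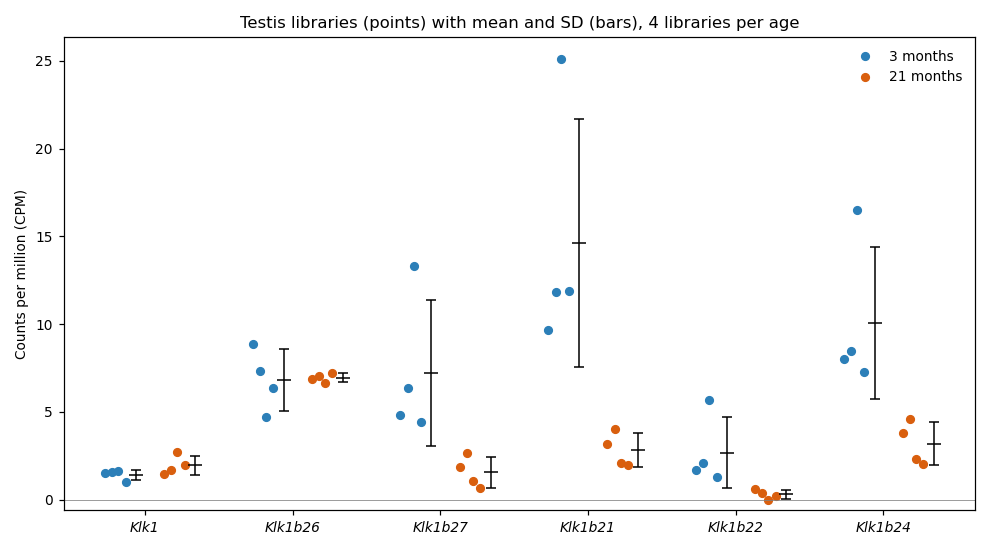
CPM of the 6 genes in the 8 testis libraries. Points are libraries (3 months in blue, 21 months in orange) and bars give the mean and SD of 4 libraries. The old libraries of Klk1b27, Klk1b21, Klk1b22 and Klk1b24 lie below all young ones, and Klk1b21 reaches 25.1 CPM in 1 young library.

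The other tissue kallikreins of the same locus give the surroundings of this change. Of 21 such genes listed, 9 had enough reads in the testis to be tested, and 1 was called higher and 1 lower at 21 months, where a call was an unadjusted p under 0.05 in edgeR's quasi-likelihood test with a change of at least 1.5-fold. Of all genes tested in the testis, 2.71% were called. Klk1b4 was higher (0.438 ± 0.110 against 0.816 ± 0.254 CPM, edgeR adjusted p = 0.361) and Klk1b16 was lower (0.970 ± 0.285 against 0.490 ± 0.154 CPM, edgeR adjusted p = 0.262), so neither passed the adjustment. The 2 most abundant of these genes in the testis moved little. Klk1b8 had 34.6 ± 4.33 CPM in young and 34.1 ± 2.32 CPM in old libraries (log2 change -0.02, SE 0.08), and Klk1b9 had 14.2 ± 3.37 and 15.2 ± 1.92 CPM (log2 change 0.10, SE 0.13). Klk1b3 (1.62 and 2.35 CPM) and Klk1b5 (1.31 and 1.58 CPM) were not called.

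By position, the 4 genes that were lower lay in the stretch from Klk1b27 through Klk1b21 and Klk1b22 to Klk1b24. This is a description only, since the same values chose the genes. Klk1b26 lay before this stretch, and Klk1b3, Klk1b4, Klk1b5 and Klk1 after it. Klk1b16, the coding gene between Klk1b22 and Klk1b24, had a log2 change of -0.98 (SE 0.35). The pseudogene Gm45122, also between Klk1b22 and Klk1b24, had a log2 change of -0.24 (SE 0.48). Of the 59 genes of the locus, 25 had enough reads in the testis. The 19 of these that are not among the 6 genes had a median log2 change of 0.10.

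**Figure D3:**
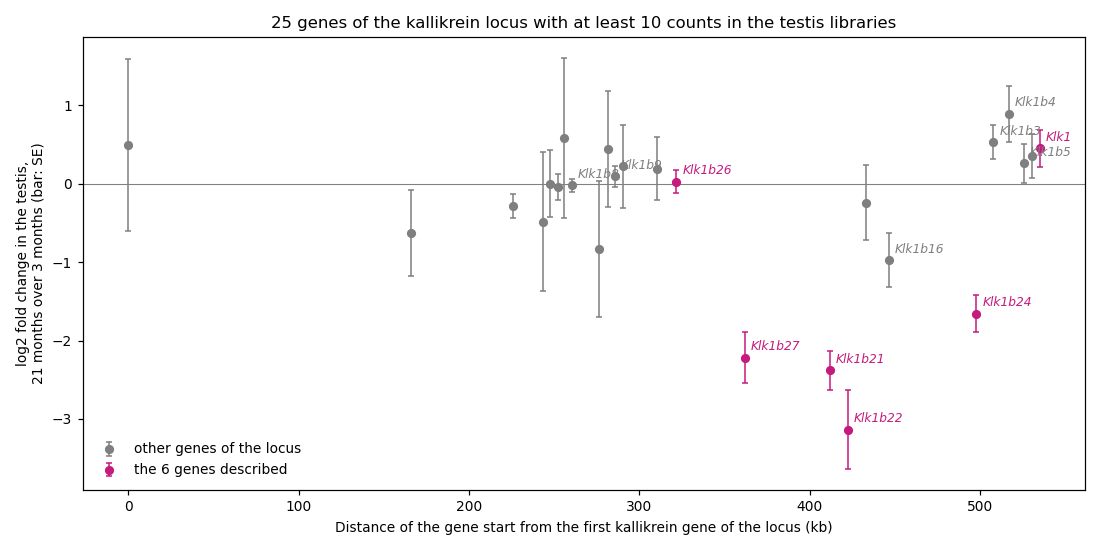
Fitted log2 change in the testis (21 months over 3 months, bar SE) of the 25 tested genes of the kallikrein locus against the distance of their start from the start of the first kallikrein gene, in kb. The 6 genes described are in pink and the others in grey, and the 4 lowest points are Klk1b27, Klk1b21, Klk1b22 and Klk1b24.

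Leydig cell markers were examined because Klk1b21, Klk1b24 and Klk1b27 are known from these cells. All 20 listed markers were detected, and their summed level was 1182 to 1282 CPM in the young and 1183 to 1385 CPM in the old testis libraries. Of the 20, 3 were called higher and 1 lower. Star, which carries cholesterol into the mitochondrion, had 33.8 ± 5.17 CPM in the young and 68.5 ± 8.33 CPM in the old testis (log2 change 1.02, SE 0.09, edgeR adjusted p = 1.24e-06). Cyp11a1, the side-chain cleavage enzyme that starts steroid synthesis, had 92.6 ± 16.9 and 61.1 ± 7.53 CPM (log2 change -0.60, SE 0.10, edgeR adjusted p = 0.00255). Hsd3b6, a 3-beta-hydroxysteroid dehydrogenase of adult Leydig cells, was higher (61.3 ± 13 and 99.7 ± 14.5 CPM, edgeR adjusted p = 0.00168), as was Cyp21a1, a 21-hydroxylase (1.03 ± 0.171 and 2.72 ± 0.508 CPM, edgeR adjusted p = 0.00168).

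Other defining Leydig genes were closer between ages. Cyp17a1, the lyase of androgen synthesis, had 222 ± 39.6 CPM in young and 173 ± 38.0 CPM in old libraries (edgeR adjusted p = 0.172). Insl3, the insulin-like hormone of Leydig cells, had 9.24 ± 1.31 and 7.30 ± 1.40 CPM, and Lhcgr, the receptor for luteinizing hormone, 8.66 ± 0.980 and 6.79 ± 1.39 CPM, with edgeR adjusted p-values of 0.337 and 0.323. Hsd3b1 had 68.3 ± 5.17 and 75.2 ± 11.9 CPM. The log2 changes of Cyp17a1, Insl3 and Lhcgr lay between -0.36 and -0.34, against -3.14 to -1.66 for the 4 kallikreins, and the difference between these values was not tested.

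**Figure D4:**
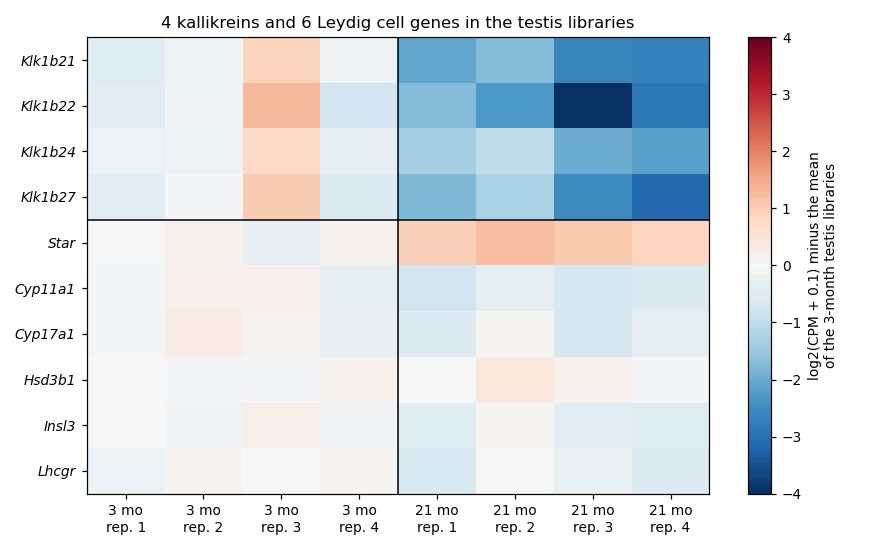
Level of 4 kallikreins and 6 Leydig cell genes in the 8 testis libraries, as log2(CPM + 0.1) minus the mean of the 4 young libraries (red higher, blue lower). The kallikreins are blue in every old library, Star is red in every old library, and the other Leydig genes are pale. The darkest cell is Klk1b22 in the old library where it had no read.

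The third young library, the highest for 4 kallikreins, was also an extreme of the young group in some Leydig genes. Its summed Leydig level was 1192 CPM, within the range of the other young libraries. It had the highest Insl3 (11.1 CPM) and Cyp11a1 (106 CPM, beside 106 CPM in the second) and the lowest Star (26.6 CPM) and Hsd3b1 (64.3 CPM) of the young libraries, and lay within their range for Cyp17a1 and Lhcgr. Its macrophage and T cell sum was the lowest of the 8 testis libraries at 97.5 CPM, and its accessory gland sum was the highest of the young ones at 2.18 CPM. Its sum of the other tissue kallikreins was the lowest of the 8, at 43.5 CPM against 51.9 to 59.7 CPM. The part of these differences in its kallikrein level was not tested.

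Markers of other cells were also compared in the testis. The Sertoli cell list (15 genes, 1352 to 1478 CPM young and 1363 to 1564 CPM old) and the germ cell list (18 genes, 16295 to 18214 CPM young and 16779 to 17824 CPM old) held no called gene. Of the 14 macrophage and T cell genes, 2 were called higher (97.5 to 128 CPM summed in young and 120 to 144 CPM in old libraries), and of the 12 endothelial, peritubular and stromal genes, 2 were called lower (219 to 254 and 204 to 230 CPM). At an edgeR adjusted p under 0.05, with no fold threshold, 1 germ cell gene and 3 endothelial, peritubular and stromal genes were lower. By that rule 1 macrophage and T cell gene was higher. Accessory gland genes summed to no more than 2.58 CPM in any testis library, with Pbsn, Defb50, Spink1 and Sbp at 0 at both ages, and 1 of the 4 tested was called higher. Epididymal epithelium genes summed to between 1.12 and 2.72 CPM and none of the 6 tested was called.

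Of the partners through which kallikreins act, 18 of 22 listed genes were tested in the testis and 2 were called, both higher. Serpina3n, a serine protease inhibitor, had 1.69 ± 0.423 CPM in the young and 4.17 ± 0.924 CPM in the old testis (log2 change 1.30, SE 0.20, edgeR adjusted p = 0.00168). Kng2, a kininogen gene and so a substrate, had 0.350 ± 0.140 and 0.789 ± 0.231 CPM (edgeR adjusted p = 0.231). The bradykinin receptors were low, at 0.197 and 0.259 CPM for Bdkrb1 and 1.99 and 2.31 CPM for Bdkrb2, and Ace, which degrades kinins and has a testis form in sperm cells, was abundant at 659 and 664 CPM. None of the 3 was called.

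Age was tested for the 6 genes in the 6 ducts, which did not serve to choose them. Of 36 pairs of a gene and a region, 24 had at least 10 reads, and 6 were called, 5 higher and 1 lower at 21 months, where between 6.84% and 17.8% of all genes tested were called in each duct. One of the 6 calls, Klk1b21 in the vas deferens, passed a Benjamini-Hochberg adjusted p under 0.05 in edgeR. The calls lay in the initial segment, cauda and vas deferens. Klk1b22 had at least 10 reads in the cauda alone and was not tested in the other 5 ducts.

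**Figure D5:**
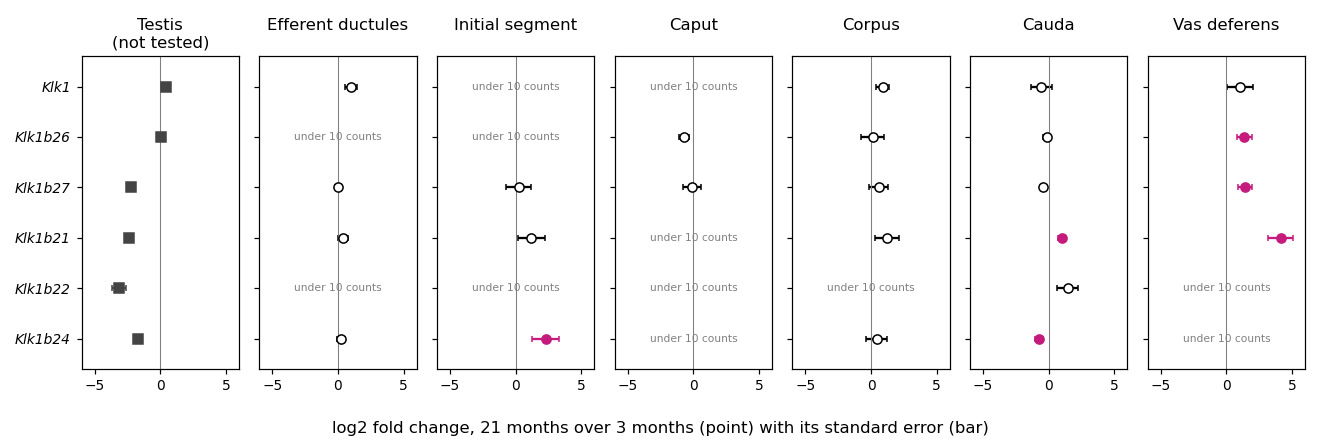
Fitted log2 change with age of each of the 6 genes in each region (point) with its SE (bar). Grey squares in the testis were not tested. In the 6 ducts, filled pink points were called (unadjusted p under 0.05 and at least 1.5-fold) and open points were not, and pairs under 10 reads carry no point. Klk1b21 lies left of 0 in the testis and right of 0 in the cauda and vas deferens.

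In the vas deferens 3 of the 4 tested genes were called, all higher at 21 months, where 17.8% of all genes tested were called. Klk1b21 had 1, 0, 1 and 0 reads in the young libraries and 1, 13, 11 and 19 reads in the old ones, and its old libraries lay above the young in CPM. The first old library, with 0.0558 CPM, was close to the highest young library at 0.0529 CPM. The ratio of summed reads, corrected for library size, was 22.8 with an exact 95% interval of 5.95 to 194 that covers counting error only (edgeR adjusted p = 0.0135). By the stricter rule of an adjusted p under 0.05 and 1.5-fold, 11.0% of all genes in the region were called.

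Klk1b27 and Klk1b26 were also higher in the old vas deferens. Klk1b27 had 1.27, 0.563, 0.495 and 0.341 CPM in the young and 0.614, 1.16, 2.25 and 3.48 CPM in the old libraries (log2 change 1.42, SE 0.54, edgeR adjusted p = 0.0904). Klk1b26 had 0.159, 0.188, 0.0495 and 0.341 CPM in the young and 0.391, 0.303, 0.506 and 0.856 CPM in the old libraries (log2 change 1.38, SE 0.58, edgeR adjusted p = 0.119). In both genes the ages overlapped and the fourth old library was the highest. Each call was lost in 5 of the 8 fits that left out 1 library, and that of Klk1b27 also with the replicate number as a block (log2 change 1.33). For Klk1b27 these were the young libraries 2, 3 and 4 and the old libraries 3 and 4, and for Klk1b26 the young libraries 1, 2 and 3 and the old libraries 3 and 4. Without the old library 4 the log2 change was 0.91 for Klk1b27 (edgeR adjusted p = 0.218) and 1.01 for Klk1b26 (edgeR adjusted p = 0.289).

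Seminal vesicle and other accessory gland genes moved with age in the same libraries. Of 12 listed genes, 5 were above 0 in the young vas deferens and 9 in the old, with Pbsn, Spink1 and Sbp at 0 at both ages, and all 5 that could be tested were called higher. Their summed level was 3.13 to 4.86 CPM in the young libraries and 489, 1930.4, 842 and 22.5 CPM in the 4 old ones. The fourth old library, with the highest Klk1b21, Klk1b26 and Klk1b27, had the lowest accessory gland sum of the old. Macrophage and T cell genes (8 of 14 called higher) summed to 283 to 399 CPM in the young and 325 to 511 CPM in the old vas deferens. Epididymal epithelium genes summed to 27446 to 29919 CPM in the young and to less, 18687 to 23519 CPM, in every old library, although 5 of the 9 tested were called higher and none lower. Of the 12 endothelial, peritubular and stromal genes 4 were called lower, with sums of 10413 to 10846 CPM in the young and 10695 to 16360 CPM in the old. The Sertoli cell list holds genes such as Clu and Vim that are not limited to Sertoli cells. It summed to 1120 to 2288 CPM in the young and 1359, 3796, 2611 and 4732 CPM in the old libraries, with 3 of 13 called higher and 1 lower. The old libraries ranked in this order for Klk1b21 but not for Klk1b26 or Klk1b27. Germ cell genes summed to 128 to 267 CPM and 160 to 268 CPM, with 4 of 17 called higher. The part of these lists in the kallikrein result was not tested.

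In the cauda all 6 genes were tested and 2 were called, 1 in each direction, beside 8.30% of all genes. Klk1b21 had 1.29, 0.826, 0.530 and 0.893 CPM in the young and 1.34, 1.90, 2.22 and 1.70 CPM in the old libraries, 2.03-fold higher (log2 change 1.02, SE 0.31, edgeR adjusted p = 0.266). Klk1b24 had 1.60, 1.72, 1.59 and 2.42 CPM in the young and 1.40, 0.856, 1.17 and 0.914 CPM in the old libraries, 1.67-fold lower (log2 change -0.74, SE 0.28, edgeR adjusted p = 0.397). In both genes the ages did not overlap, and the share of all genes without overlap in the cauda was not counted. The call of Klk1b24 was lost without the young library 4 (log2 change -0.60) or without the old library 4 (log2 change -0.64) and in a joint fit of all 56 libraries (log2 change -0.75), and that of Klk1b21 held without any single library.

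The main cauda gene, Klk1b27, had 28.8, 33.9, 22.3 and 32.2 CPM in the young and 23.0, 17.4, 21.7 and 22.3 CPM in the old libraries. Its log2 change of -0.46 (SE 0.16, edgeR adjusted p = 0.342) was below 1.5-fold, and the ages overlapped through the third young library. Klk1b26 had 3.29 to 7.94 CPM in the young and 4.44 to 6.29 CPM in the old libraries (log2 change -0.15, SE 0.26). None of the 6 genes had an adjusted p under 0.05 with a 1.5-fold change in the cauda, where 0.128% of all genes tested did.

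The third young cauda library stood apart from its group. Its macrophage and T cell genes summed to 3787 CPM against 471 to 506 CPM in the other 3, its epididymal epithelium genes to 9639 CPM against 16118 to 18014 CPM, and its endothelial, peritubular and stromal genes to 10688 CPM against 6435 to 7255 CPM. It also had the lowest Klk1b21, Klk1b24, Klk1b26 and Klk1b27 of the young group, and the highest Klk1 and Klk1b22. For Klk1b24 it was close to the first young library (1.59 and 1.60 CPM). Without it the log2 change was 0.86 for Klk1b21, -0.77 for Klk1b24 and -0.55 for Klk1b27 (edgeR adjusted p = 0.375, 0.454 and 0.204), so the directions and calls were as with it. Over all 4 libraries per age, 7 of the 12 endothelial, peritubular and stromal genes were called lower in the old cauda. Of the 10 epididymal epithelium genes 4 were called lower and 1 higher, with sums of 9639 to 18014 CPM in the young and 12751 to 31521 CPM in the old, and of 8 accessory gland genes tested 3 were called higher, with sums of 74.7 to 178 CPM and 103 to 141 CPM. The Sertoli cell list summed to 2879 to 4362 CPM in the young and 4082 to 7318 CPM in the old, with 2 genes called in each direction. The part of these lists in the kallikrein values was not tested.

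Klk1b21 had a lower fitted level with age in the testis, where it was chosen, and a higher one in the cauda and vas deferens. Among the ducts its change passed the adjustment in the vas deferens alone. Whether the age effect differed between the cauda and vas deferens was tested after the data were seen, by an interaction term in edgeR over their 16 libraries. The log2 change in the vas deferens minus that in the cauda was 3.13 for Klk1b21 (SE 0.97, edgeR adjusted p = 0.0849), 1.89 for Klk1b27 (SE 0.54, edgeR adjusted p = 0.0646) and 1.54 for Klk1b26 (SE 0.57, edgeR adjusted p = 0.136). None of the 6 genes passed an adjusted p under 0.05, which 2.55% of all genes did. Without the first old vas deferens library the edgeR adjusted p was 0.0273 for Klk1b21 and 0.0280 for Klk1b27, and without the third young cauda library it was 0.0489 for Klk1b27. Over the 16 omissions of 1 library it ran from 0.0273 to 0.169 for Klk1b21 and from 0.0280 to 0.137 for Klk1b27.

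In the initial segment 1 of 3 tested genes was called, beside 11.5% of all genes. Klk1b24 had 0, 0, 1 and 2 reads in the young and 6, 5, 0 and 4 reads in the old libraries, a ratio of summed reads of 5.09 with an exact 95% counting interval of 1.44 to 27.4 (edgeR adjusted p = 0.236). At 18 reads in all this is a small signal, and the ages overlapped. The call was lost in 6 of the 8 fits that left out 1 library, with the replicate number as a block (log2 change 2.19) and with DESeq2 (log2 change 2.47). Germ cell genes in the same libraries summed to 71.9 to 193 CPM in the young and 33.4 to 66.4 CPM in the old, with 15 of 17 tested called lower. Macrophage and T cell genes summed to 237 to 263 CPM in the young and 285 to 338 CPM in the old, with 7 of 14 called higher, and the endothelial, peritubular and stromal genes to 1683 to 2375 CPM and 1251 to 1452 CPM, with 2 of 12 called lower. The part of these lists was not tested.

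No gene was called in the other 3 ducts. In the efferent ductules 4 genes were tested, beside 12.8% of all genes called. Klk1b27 (2.88 and 2.72 CPM), Klk1b21 (1.85 and 2.26 CPM) and Klk1b24 (1.38 and 1.52 CPM) each had a log2 change between -0.01 and 0.36. Klk1 had 0.212, 0.369, 0.328 and 0.912 CPM in the young and 1.23, 0.774, 0.798 and 0.728 CPM in the old libraries (log2 change 0.99, SE 0.49, edgeR adjusted p = 0.235). The young library 4 was the only one that overlapped with the old, and without it Klk1 was called, 3.06-fold higher at 21 months (edgeR adjusted p = 0.102). In the same region 9 of 14 macrophage and T cell genes were called higher, with sums of 369 to 406 CPM young and 499 to 710 CPM old. Epididymal epithelium genes summed to 31.1 to 78.1 CPM in the young and 8.86, 888, 566 and 16.8 CPM in the old, with 3 of 10 called higher. Endothelial, peritubular and stromal genes summed to 2851 to 3670 and 1792 to 2063 CPM, with 3 of 12 called lower and 1 higher. The part of these lists was not tested.

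In the caput 2 genes were tested, beside 13.2% of all genes called, and Klk1b26 had 0.776, 0.401, 0.986 and 1.26 CPM in the young and 0.673, 0.449, 0.570 and 0.543 CPM in the old libraries (log2 change -0.70, SE 0.37, edgeR adjusted p = 0.254). The second young caput library, the lowest of its group, was also the library in which the single gene Gm42418 took 49.7% of all counts, against 1.27 to 36.0% in the other 55 libraries, and without it Klk1b26 was called lower, with a log2 change of -0.83. In the corpus 5 genes were tested, beside 6.84% of all genes called. Klk1 there had 0.285, 0.432, 0.514 and 0.155 CPM in the young and 0.464, 0.377, 0.823 and 0.995 CPM in the old libraries. Klk1b27 in the corpus depended on the second young library, which at 1.22 CPM was the highest of all 8. Without it Klk1b27 was called, 4.88-fold higher at 21 months (edgeR adjusted p = 0.125). That library also had the highest accessory gland sum of the young corpus, at 28.1 CPM against 7.26, 9.82 and 10.1 CPM. The part of this difference was not tested.

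Among the other kallikreins outside the testis, Klk1b5 had 2.75 ± 0.276 CPM in the young and 1.55 ± 0.340 CPM in the old caput (log2 change -0.88, SE 0.24, edgeR adjusted p = 0.0414). In the cauda Klk1b1, Klk1b4 and Klk1b11 were called lower, with means of 0.981 and 0.402 CPM for Klk1b1, and none passed the adjustment. In the vas deferens 1 of 8 tested was called, Klk1b5, which was higher (0.735 ± 0.354 and 1.71 ± 0.95 CPM, edgeR adjusted p = 0.112), and the 8 had a median log2 change of 0.70. In the initial segment 1 of 3 tested was called, Klk1b8, which was lower (0.210 ± 0.140 and 0.0147 ± 0.0293 CPM, edgeR adjusted p = 0.120). Klk1b5 was highest in the corpus at 9.76 and 11.3 CPM, and Klk11 was above 0.5 CPM in the efferent ductules alone, at 0.743 and 0.834 CPM. Klk8 exceeded 0.5 CPM in the old cauda and vas deferens, at 0.535 and 0.602 CPM.

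The genes whose pattern was most like the summed level of the 6 kallikreins were sought among 19577 genes with at least 1 CPM in the testis, by Pearson's correlation of log2(CPM + 1). Over the 14 group means, which share their mice, the closest were Strip2 (r = 0.898), Sgsm3 (0.896), R3hcc1l (0.896), Gm16174 (0.891) and Atp8b5 (0.890). Strip2, the closest, had 55.7 CPM in the young and 50.9 CPM in the old testis. Over the 8 testis libraries, after the mean of each age was subtracted, the closest were Ninj1 (r = 0.993), Gm21276 (0.992), Adam26b (0.988), Gnpda2 (0.983) and Inpp4b (0.976). Without the third young library, over 7 libraries, the same 5 genes had r between 0.897 (Inpp4b) and 0.982 (Ninj1). They were picked as the closest of many genes over few libraries, and Ninj1 had 7.10 CPM in the young and 7.11 CPM in the old testis.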

How the data were processed

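RNA of 7 regions of C57BL/6 mice of 2 ages was sequenced as stranded total RNA in 56 libraries, 4 per region and age. The authors deposited whole-number read counts per Ensembl gene, without normalization. Per the study's methods, reads were aligned with Hisat2 to GRCm38, and the submitters' processing notes also name cutadapt, HTSeq and mm10. Versions, the annotation release, the counting mode and the strand setting are not given in the sources used here. The labels and the methods name different RNA extraction reagents.

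Groups were taken from the labelled region, age and replicate number. The replicates are 4 mice per age by the study's methods. No library was left out, and no library's counts were identical to another's. Symbols, positions and exon lengths came from GENCODE M21 on GRCm38, with a symbol for 53274 genes. Promoters came from the RefSeq table (GRCm38.p6), which held all 6 genes. Egfbp2, a further glandular kallikrein on the list of other kallikreins, had no row under that symbol.

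Ages were compared in each region with the quasi-likelihood F-test of edgeR 4.0.16 (R 4.3.3) after TMM normalization. Genes with fewer than 10 counts over the fitted libraries were dropped. A call was an unadjusted p under 0.05 with at least 1.5-fold change. Benjamini-Hochberg adjusted p-values over all genes tested are given beside it. A further fit tested any difference among the 6 ducts at each age. The fits were tested on simulated data first. Alternatives were DESeq2 1.42.0, other scalings and filters, a joint fit of all regions, blocking on the replicate number, calling on adjusted p-values, and omitting single libraries. The interaction of age and region, the motif TTTAAA and the emphasis on the third young testis library were added after seeing the data.

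The genes named were the 6 members, other kallikreins with a mean of at least 0.5 CPM in a group or called in the testis, the Leydig and kinin genes with an adjusted p under 0.05 in the testis (at most 4 per list) with fixed Leydig genes, and the 5 genes most alike by each measure. Results of 1 further list and 2 motifs are not reported here. Further partners (Kng2, Bdkrb1, Bdkrb2 and Ace), Gm42418 and the marker names of other cells were added beside these. The 6 genes, the 10 gene lists and the tests were chosen with earlier results of these data known. At a median of 16384049 counts per library, genes below 1 CPM rest on few reads, and intervals of read ratios cover counting error only.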

Additional observations from a re-analysis of the deposited data

Results flagged for a closer look

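In each gene and group with a mean of at least 10 reads, 31 in all, the highest and the lowest of the 4 libraries were compared with the rest by Dixon's gap at its 95% critical value, which chance exceeds in about 1 in 20 groups. In 4 groups a library stood apart. In the young testis the third library was the highest for Klk1b21 at 25.1 CPM and for Klk1b24 at 16.5 CPM, and the fold changes without it are given in the text. The fourth young cauda library was the highest of its group for Klk1b24 at 2.42 CPM, and the first old library of the efferent ductules was the highest for Klk1 at 1.23 CPM.

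The fitted change of Klk1b21 with age differed in sign between regions, and among the ducts only that in the vas deferens passed the adjustment. Every old testis library was below every young one, while every old library was above every young one in the cauda (log2 change 1.02). In the vas deferens (log2 change 4.14) the ages were not apart in reads, since old library 1 and young libraries 1 and 3 each held 1 read. Only the TMM scaling put old library 1 above young library 1 there (0.0558 against 0.0529 CPM). The difference of the testis from these regions was not tested, because the testis values chose the gene, and the fitted change in the vas deferens rests on 2 reads in the young libraries.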

How the results depend on the processing

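Of the age changes in the testis and those called in the ducts, that of Klk1b26 in the testis, near 0 at a log2 change of 0.03, changed sign, to between -0.12 and 0.18 without single libraries, and no other changed direction under any alternative tried. In the testis the same number of genes, 4, was at least 1.5-fold lower at 21 months under every alternative and without any single library. The number of the 6 genes called with age outside the testis was less stable. A joint fit of all 56 libraries called 2 genes in the initial segment and 1 each in the cauda and efferent ductules. DESeq2 called 0 in the initial segment, and edgeR's filterByExpr left 1 call in the vas deferens. At an adjusted p under 0.05 the initial segment and the cauda had 0 calls each and the vas deferens had 1. Leaving out 1 library in turn gave 1 to 3 calls in the vas deferens, 1 to 2 in the cauda, and 0 to 1 in each of the other 4 ducts. The cause of these shifts was not tested beyond the libraries named in the text.

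With the replicate number as a block, 0 genes were called in the initial segment (log2 change 2.19 for Klk1b24) and Klk1b27 in the vas deferens was no longer called (log2 change 1.33), and other counts were within 1.5 times of those given. The numbers were not shown to mark a mouse. Deviations of same-numbered libraries from their group means correlated between the ages at -0.0642 to 0.0832 in single pairs, with averages of -0.0318 to 0.0306 over the 7 regions, and between ducts of one age at -0.141 to 0.124 (3 months) and -0.0928 to 0.0979 (21 months), and no pair of groups had every correlation above 0.1. The 6 genes are short and close in sequence, and most of their values outside the testis and cauda rest on few reads.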
